A study of Homo sapiens with 18 samples.

Results

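The mRNA levels of 10 genes of mitochondrial fatty acid oxidation and of the peroxisome proliferator-activated receptor (PPAR) response were followed in OVCAR5 cells given stearate or oleate. The genes were chosen by name: CPT1A, CPT2, SLC25A20, ACADVL, ACADM, HADHA, HADHB, ETFDH, PDK4 and ANGPTL4. All 10 were found among the 60483 genes of the expression table. Of these, 9 had a mean of at least 1 TPM (transcripts scaled to a fixed total per sample) and belonged to the 13789 genes tested, whereas PDK4 had a mean of 0.378 TPM and is described only as low.

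OVCAR5 is an established human ovarian cancer line, so all values describe a single line in culture. The 18 samples were 3 replicates of each of 6 conditions: oleate+CAY10566, oleate+DMSO, stearate+CAY10566, stearate+DMSO and, with no fatty acid, CAY10566 or DMSO alone. Fatty acids were used at 50 µM and CAY10566, an inhibitor of the desaturase SCD1, at 1 µM, for 24 h in medium with fatty acid-free albumin, and DMSO was the vehicle. Stearate is a saturated fatty acid, and oleate, which SCD1 makes from it, has the same chain length with a cis unsaturated bond. The samples were pooled into groups of 6 by fatty acid, with and without CAY10566 together: control (no fatty acid), stearate and oleate. The labels give only replicate numbers, so p-values measure the spread between these samples, which may be technical.

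Mitochondrial β-oxidation takes in long-chain fatty acids through the carnitine shuttle and shortens them step by step to acetyl-CoA, and its electrons reach the respiratory chain through electron transfer flavoprotein. PPARs are nuclear receptors that bind fatty acids and, paired with RXR receptors, activate genes through a response element of the direct repeat 1 (DR1) type. In liver and muscle, CPT1A, PDK4 and ANGPTL4 are well-known PPAR targets. Receptor binding and fatty acid oxidation itself were not measured in these data, so whether a PPAR drives any of the 10 genes here was not tested.

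The line expressed epithelial genes strongly and most markers of other cell types weakly. The summed TPM of EPCAM, KRT8, KRT18, KRT19 and CDH1 was 2550 to 2680 in the control samples, 2070 to 2220 with stearate and 2290 to 2570 with oleate. With stearate against control, KRT8 (log2 fold change -0.24), KRT18 (-0.44) and KRT19 (-0.29) fell (limma, adjusted p = 2.12e-05, 6.7e-07 and 0.0002), 3 of the 5 genes of that list beside 5.97% of all genes. Under size factors 4 fell (10.2% of all genes), and 5 fell with the trend of each sample on transcript length and GC content removed (10.3%). KRT18 (-0.16, adjusted p = 0.00923) and KRT19 (-0.13, adjusted p = 0.0351) also fell with oleate, KRT19 not with that trend removed (adjusted p = 0.0919). Of the ovarian serous markers only PAX8 had a mean above 1 TPM, and WT1, MUC16, ESR1 and SOX17 did not. The 4 adipocyte markers summed to at most 0.28 TPM, and PTPRC, which marks leukocytes, had a mean of 0.00556. The 3 endothelial markers, each with a mean below 1 TPM, summed to 1.11 to 1.7 TPM in control, 0.53 to 0.89 with stearate and 1.46 to 2.39 with oleate, so that the stearate samples lay below the others. CD68, a macrophage marker, had a mean of 94.5 TPM and was lower with stearate than with oleate (-0.27, limma, adjusted p = 0.00245). The part of these markers in the results below was not tested. The 5 fibroblast markers, of which COL1A1 alone had a mean above 1 TPM, summed to 3.26 to 6.42 TPM in control, 4.01 to 7.26 with stearate and 4.16 to 7.52 with oleate. The sample CAY10566 replicate 3 stood apart: its score on the first principal component was 14.2, against -19.9 to -12.2 for the other 5 control samples. Calls of the 10 genes between the fatty acid groups that changed without it are given both ways. Changed counts of the gene lists other than these markers are given after them. Because these are bulk samples, fewer cells that express a gene and less RNA of it per cell cannot be told apart.

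Among the 8 genes of the mitochondrial pathway, TPM, which is scaled per transcript length, spanned a wide range. ACADVL, the first dehydrogenase for very long chains, had the highest mean (176.0 TPM), followed by HADHA (107.0) and HADHB (86.5), the α and β subunits of the trifunctional protein that carries out the remaining steps for long chains. ACADM, the medium-chain dehydrogenase, had a mean of 23.5 TPM. CPT2 (11.6) and CPT1A (11.5), the inner and outer carnitine palmitoyltransferases, and ETFDH (6.09), which passes electrons from electron transfer flavoprotein to ubiquinone, were lower. SLC25A20, the carnitine-acylcarnitine carrier between the 2 transferases, was lowest at 4.65 TPM. ANGPTL4, a secreted inhibitor of lipoprotein lipase, had a mean of 13.0 TPM. ACADVL made up 41.2% ± 1.59 (SD, n = 18) of the summed TPM of the 8 genes.

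**Figure D1:**
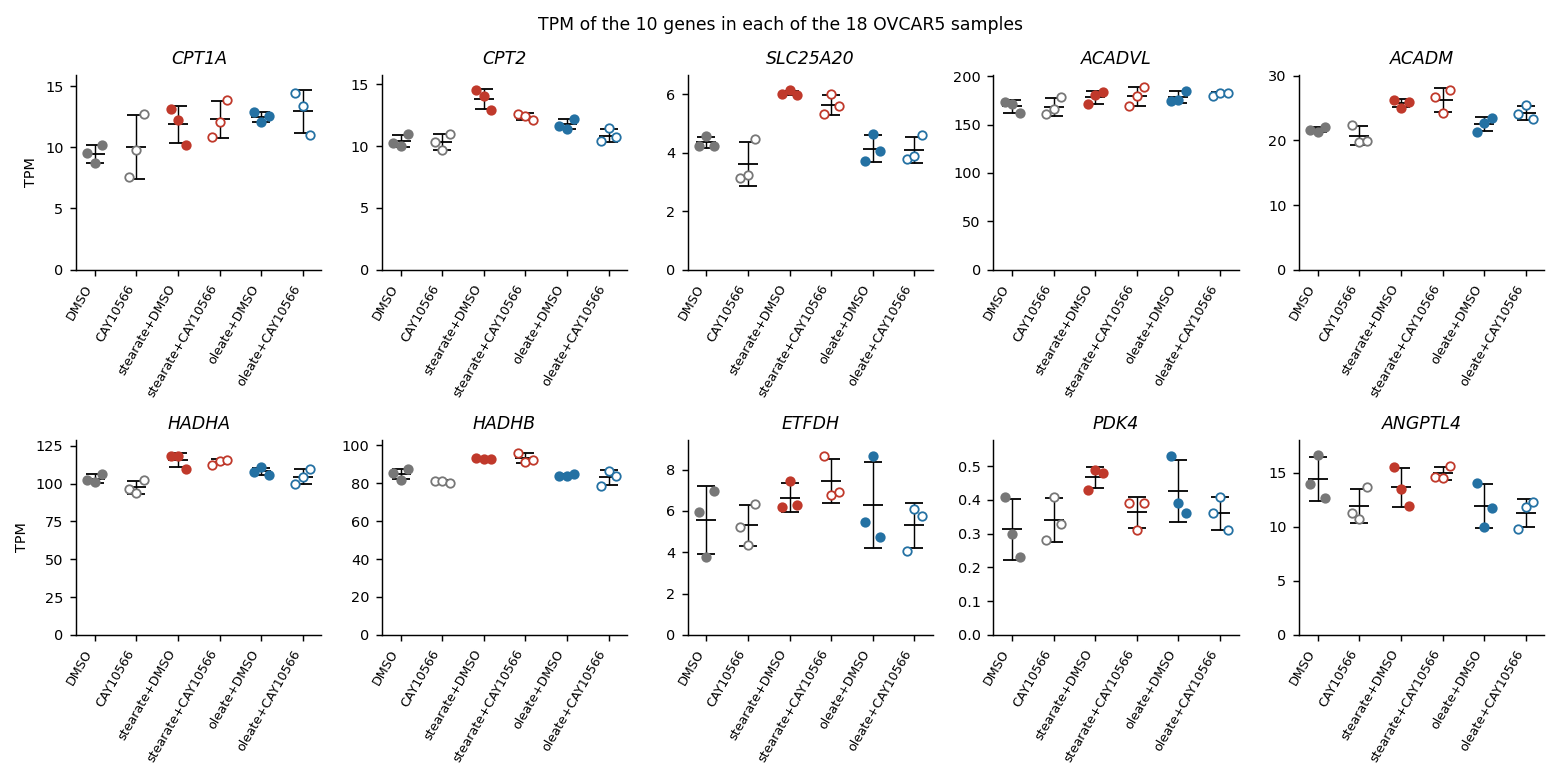
TPM of the 10 genes in each of the 18 samples, on axes that start at 0. Points are samples, filled for DMSO and open for CAY10566, and the horizontal lines mark the mean ± SD of 3 replicates. SLC25A20 lay between 5.32 and 6.14 TPM with stearate and between 3.14 and 4.64 TPM in all other samples, whereas ANGPTL4 and PDK4 overlapped between the groups.

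The genes lie on separate chromosomes except for 2 pairs on GRCh38 (gene bounds from GENCODE): CPT2 (chr1:53196792-53214197, plus strand) and ACADM (chr1:75724431-75787575, plus strand) share a chromosome, and HADHA (chr2:26190635-26244672, minus strand) and HADHB (chr2:26243170-26290465, plus strand) overlap head to head. The start sites of HADHA and HADHB are 307 bases apart in RefSeq. The other genes are CPT1A (chr11:68754620-68844410, minus strand), SLC25A20 (chr3:48856926-48898904, minus strand), ACADVL (chr17:7217125-7225266, plus strand), ETFDH (chr4:158671968-158710742, plus strand), PDK4 (chr7:95583499-95596516, minus strand) and ANGPTL4 (chr19:8363289-8374370, plus strand). CPT2, ACADVL, ETFDH and PDK4 also overlap genes on the opposite strand, and ACADM overlaps RABGGTB (mean 143.0 TPM) on its own strand. The library kit kept strand, but the strand setting of the counting is not given in the sources used here, so reads could have been shared between overlapping genes.

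RefSeq windows of 300 bases around the start site (GRCh38.p14, 250 upstream) were found for 9 of the 10 genes. They were searched on both strands for DR1 written as AGGTCANAGGTCA, in which the half-site AGGTCA occurs in direct repeat. None of the windows of the 9 genes held DR1 with at most 2 mismatches, which 2.97% of all 35116 windows did, and none held an exact half-site, which 13.8% of all windows did. The nearest stretch in the SLC25A20 window, and in the second of the 2 windows of ACADVL, had 3 mismatches, a distance that 20.9% of all windows reached. The DNA upstream of SLC25A20 (chr3:48898905-48899132, minus strand) is shown because this gene differed most with stearate, and that of ANGPTL4 (chr19:8363905-8364154, plus strand) because it is a well-known PPAR target whose groups overlapped. The stretch of HADHA and HADHB that no annotated exon covers (chr2:26244689-26244747, plus strand) is shown as part of the DNA between their start sites. Capitals mark a stretch nearest to DR1, which for HADHA and HADHB lies outside the bases printed.
SLC25A20: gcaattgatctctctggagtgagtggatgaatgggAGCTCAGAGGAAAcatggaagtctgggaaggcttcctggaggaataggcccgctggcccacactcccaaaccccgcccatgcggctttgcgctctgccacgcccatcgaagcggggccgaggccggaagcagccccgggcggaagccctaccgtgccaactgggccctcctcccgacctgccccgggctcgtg
ANGPTL4: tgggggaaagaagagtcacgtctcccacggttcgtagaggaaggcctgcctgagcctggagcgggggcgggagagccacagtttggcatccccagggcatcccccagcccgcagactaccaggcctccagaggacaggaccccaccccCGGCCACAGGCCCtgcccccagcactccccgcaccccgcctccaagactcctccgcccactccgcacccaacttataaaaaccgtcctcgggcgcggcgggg
HADHA and HADHB: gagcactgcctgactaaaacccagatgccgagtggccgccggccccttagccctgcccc
The 3 stretches are rich in G and C (65.8%, 68.8% and 67.8%). A stretch of this kind is a match of letters and not a site, and elements elsewhere in a gene were not searched.

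With stearate, 5 genes of the pathway were higher than in control without any overlap between the 6 stearate and the 6 control samples: SLC25A20, CPT2, ACADM, HADHA and HADHB. They cover the carnitine shuttle past its first step, the medium-chain dehydrogenase and the trifunctional protein. Differences were small, from 0.17 to 0.47 as log2 of TPM + 1, a scale that understates how much low genes change. Together with CPT1A, 6 of the 9 tested genes rose with stearate (limma, with the false discovery rate [FDR] of Benjamini and Hochberg below 0.05) and 0 fell, beside 13.5% of all genes that rose and 5.97% that fell. The median log2 fold change was 0.28 over the 9 genes and 0.06 over all genes. By over 25% on the same scale, 1 of the 9 rose (3.46% of all genes). All 6 stearate samples lay above all 6 control samples for 4.7% of all genes.

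SLC25A20 had 4.25, 4.58 and 4.24 TPM with DMSO and 3.14, 3.23 and 4.49 TPM with CAY10566. With stearate it had 6.03, 6.14 and 5.99 TPM with DMSO and 5.32, 6.0 and 5.6 TPM with CAY10566. With oleate it had 3.73, 4.64 and 4.07 TPM with DMSO and 3.78, 3.89 and 4.62 TPM with CAY10566. The stearate samples were thus above every other sample, and the 4 conditions without stearate overlapped each other. The log2 fold change of stearate against control was 0.47 (95% confidence interval 0.29 to 0.64, limma, adjusted p = 0.000715), the largest of the 9 genes. With all samples and TPM + 1, SLC25A20 alone passed the FDR with a rise of over 25%, whereas a pseudocount of 0.1 gave 2 such genes. Leaving out CAY10566 replicate 3 gave 3 (SLC25A20, CPT2 and CPT1A). That against oleate was 0.42 (0.25 to 0.59, adjusted p = 0.00118), and oleate against control gave 0.04 (-0.13 to 0.22, adjusted p = 0.732). In exact permutation tests, both stearate comparisons of SLC25A20 gave the smallest two-sided p that 6 against 6 samples allow (p = 0.00216).

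CPT2, which releases acyl-CoA inside the mitochondrion, ranged from 9.68 to 11.01 TPM in control (median 10.3), from 12.11 to 14.51 with stearate (median 12.8) and from 10.39 to 12.22 with oleate (median 11.4). Oleate lay between the other groups and overlapped both. It rose by 0.31 with stearate (0.20 to 0.42, limma, adjusted p = 0.000517), and its value with oleate was 0.11 (0.00 to 0.22, adjusted p = 0.125). The difference between the fatty acids was 0.20 (0.09 to 0.31, adjusted p = 0.0122).

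ACADM ranged from 19.83 to 22.39 TPM in control (median 21.5), from 24.18 to 27.77 with stearate (median 26.1) and from 21.33 to 25.42 with oleate (median 23.4). It rose with stearate by 0.28 (0.19 to 0.38, limma, adjusted p = 0.000337). With oleate it was 0.13 higher (0.04 to 0.23, adjusted p = 0.0382), a call that was lost when TPM were rescaled by size factors (0.04, adjusted p = 0.622) and in 8 of the 18 fits without a single sample (up to 0.0901, without oleate+CAY10566 replicate 2). The fit without CAY10566 replicate 3 was 1 of these 8 (0.12, adjusted p = 0.0602). Stearate exceeded oleate by 0.15 (0.05 to 0.24, adjusted p = 0.0284), a call lost in 4 of those 18 fits (without stearate+CAY10566 replicate 1 or 3, or oleate+DMSO replicate 1 or 2, adjusted p = 0.0579, 0.064, 0.0687 and 0.0581). Within samples, ACADVL over ACADM had a mean of 7.97 ± 0.667 (SD, n = 6) in control, 6.88 ± 0.425 with stearate and 7.72 ± 0.345 with oleate.

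HADHA ranged from 93.98 to 106.62 TPM in control, from 109.98 to 118.31 with stearate and from 99.71 to 110.7 with oleate. HADHB ranged from 80.08 to 87.34 TPM in control, from 91.09 to 96.15 with stearate and from 78.72 to 86.3 with oleate. Both subunits were thus highest with stearate, and HADHB with stearate overlapped neither other group. HADHA rose with stearate by 0.19 (0.12 to 0.26, limma, adjusted p = 0.000508) and HADHB by 0.17 (0.11 to 0.22, adjusted p = 0.000498). Against oleate the differences were 0.11 for HADHA (0.04 to 0.18, adjusted p = 0.0221, but 0.0537 without oleate+CAY10566 replicate 1) and 0.15 for HADHB (0.09 to 0.21, adjusted p = 0.000689). The ratio of HADHA to HADHB TPM was 1.21 ± 0.0401 (SD, n = 6) in control, 1.24 ± 0.0455 with stearate and 1.27 ± 0.0398 with oleate, and the groups overlapped.

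With all samples and TPM + 1, ACADVL and ETFDH did not pass the test with stearate. ACADVL ranged from 160.53 to 178.13 TPM in control, from 169.01 to 188.44 with stearate and from 174.19 to 185.25 with oleate. Its value was 0.08 with stearate (0.02 to 0.15, limma, adjusted p = 0.0673, or 0.0223 without CAY10566 replicate 3 and 0.0349 without stearate+CAY10566 replicate 1). It also passed with the trend on transcript length and GC content removed (0.10, adjusted p = 0.0205), but had 0.03 under size factors (adjusted p = 0.651). With oleate it was 0.10 (0.03 to 0.16, adjusted p = 0.0315), which passed the test here but was -0.0033 (adjusted p = 0.962) after rescaling by size factors. The test was also missed in 5 of the 18 fits without a single sample (up to 0.0754, without DMSO replicate 3). The fatty acids differed by -0.01 (-0.08 to 0.05). ETFDH varied most between replicates of all the tested members, with 3.78 to 6.97 TPM in control, 6.2 to 8.66 with stearate and 4.07 to 8.65 with oleate, and its interval with stearate was wide (0.34, 0.04 to 0.63, adjusted p = 0.0978).

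The summed TPM of the 8 pathway genes was 387.0 to 415.0 in control, 442.0 to 463.0 with stearate and 415.0 to 434.0 with oleate. The stearate range lay above both others. ACADVL carried the largest share of each sum, so the sum is not an equal weighing of the genes.

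**Figure D2:**
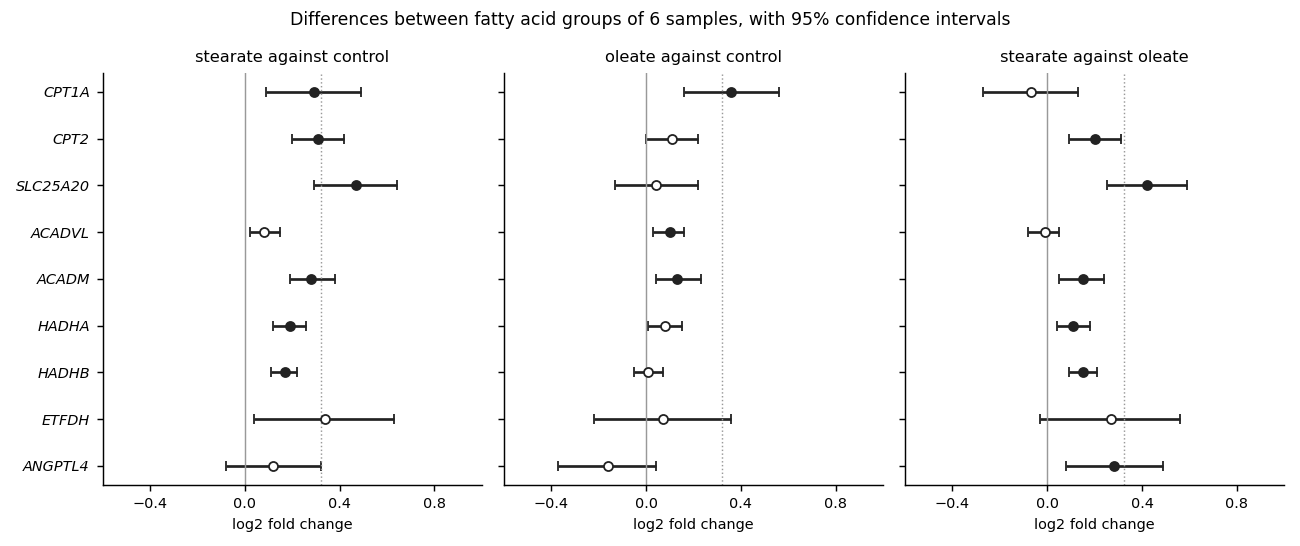
log2 fold changes on the log2(TPM + 1) scale of the 9 tested genes between fatty acid groups of 6 samples each, with 95% confidence intervals from limma. Filled points passed an FDR of 0.05, and the dotted line marks a rise of 25%. SLC25A20, CPT2, ACADM, HADHA and HADHB were higher with stearate than in control and than with oleate, and CPT1A rose with both fatty acids against control.

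CPT1A, the outer-membrane transferase that malonyl-CoA inhibits and the rate-limiting step of the pathway, differed from the genes above in that it was higher with both fatty acids. It had 9.56, 8.71 and 10.15 TPM with DMSO and 7.54, 9.75 and 12.76 with CAY10566. With stearate it had 13.16, 12.26 and 10.21 TPM with DMSO and 10.88, 12.08 and 13.88 with CAY10566. With oleate it had 12.86, 12.06 and 12.52 TPM with DMSO and 14.42, 13.37 and 11 with CAY10566. Both fatty acid groups overlapped the control group through CAY10566 replicate 3, the sample that stood apart, whose 12.76 TPM was the highest control value. The log2 fold change was 0.36 with oleate (0.16 to 0.56, limma, adjusted p = 0.0109, a rise of over 25%) and 0.29 with stearate (0.09 to 0.49, adjusted p = 0.0374). Without CAY10566 replicate 3 these became 0.44 (adjusted p = 0.000696) and 0.37 (adjusted p = 0.00417).

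The stearate call of CPT1A was close to the threshold. It was lost under size factors (0.24, limma, adjusted p = 0.0576), with no filter on TPM (0.29, adjusted p = 0.0882) and with the trend of each sample on transcript length and GC content removed (0.22, adjusted p = 0.0554). It was also lost without DMSO replicate 1, 2 or 3, CAY10566 replicate 1 or 2, stearate+DMSO replicate 1 or 2, or stearate+CAY10566 replicate 2 or 3, with adjusted p from 0.0505 to 0.0872. The oleate call held in all 18 fits without a single sample and was lost with the length and GC trend removed (0.22, adjusted p = 0.0709). The fatty acids differed in CPT1A by -0.07 (-0.27 to 0.13, adjusted p = 0.651). The ratio of CPT1A to CPT2 TPM was 0.936 ± 0.144 (SD, n = 6) in control, 0.924 ± 0.124 with stearate and 1.13 ± 0.139 with oleate, and the groups overlapped.

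With oleate, 3 of the 9 tested genes rose (CPT1A, ACADM and ACADVL) and 0 fell, beside 23.0% of all genes that rose and 2.7% that fell. By over 25%, 1 of 9 rose (6.46% of all genes). The median log2 fold change of the 9 genes was 0.08, and that of all genes was 0.09. None of the 9 had all 6 oleate samples above all 6 controls, as 3.49% of all genes did. Stearate and oleate were compared with the same 6 control samples, so their values are given side by side and not as independent results.

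The direct comparison of the fatty acids, at the same dose and time, gave higher levels with stearate for 6 of the 9 genes (SLC25A20, CPT2, ACADM, HADHA, HADHB and ANGPTL4) and lower levels for 0. Over all genes, 6.85% were higher and 14.3% were lower with stearate than with oleate. The median was 0.15 for the 9 genes and -0.03 for all genes. SLC25A20 alone was higher by over 25% (1.6% of all genes), and SLC25A20 and HADHB had all 6 stearate samples above all 6 oleate samples (2.94% of all genes). CPT1A, ACADVL and ETFDH did not pass the test between the fatty acids, and their intervals (-0.27 to 0.13, -0.08 to 0.05 and -0.03 to 0.56) leave room for differences of those sizes on the log2 scale.

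ANGPTL4 overlapped between all groups and passed no test against control in the pooled groups. It had 13.97, 16.68 and 12.66 TPM with DMSO and 11.26, 10.76 and 13.68 with CAY10566. With stearate it had 15.52, 13.53 and 11.91 TPM with DMSO and 14.64, 14.56 and 15.67 with CAY10566. With oleate it had 14.02, 10.02 and 11.75 TPM with DMSO and 9.8, 11.84 and 12.25 with CAY10566. The log2 fold change was 0.12 with stearate (-0.08 to 0.32, limma, adjusted p = 0.409) and -0.16 with oleate (-0.37 to 0.04, adjusted p = 0.227). Between the fatty acids it was 0.28 (0.08 to 0.49, adjusted p = 0.0447), but this call was lost in 11 of the 18 fits without a single sample, with adjusted p up to 0.106 (without oleate+CAY10566 replicate 1). The call was also lost with no filter on TPM (adjusted p = 0.105) and with no trend in eBayes (0.0524). It held under size factors (0.32, adjusted p = 0.0236) and with the length and GC trend removed (0.33, adjusted p = 0.0126). Within DMSO, oleate against no fatty acid gave -0.26 (adjusted p = 0.16), which passed the test under size factors (-0.38, adjusted p = 0.043) and in no fit without a single sample.

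PDK4, the kinase that shuts off pyruvate dehydrogenase when fat is burned, was near the limit of what the table resolves. It had 0.41, 0.3 and 0.23 TPM with DMSO and 0.28, 0.41 and 0.33 with CAY10566. With stearate it had 0.43, 0.49 and 0.48 TPM with DMSO and 0.39, 0.31 and 0.39 with CAY10566. With oleate it had 0.53, 0.39 and 0.36 TPM with DMSO and 0.36, 0.41 and 0.31 with CAY10566. The groups overlapped. In a fit with no filter on TPM its log2 fold change was 0.09 with stearate (limma, adjusted p = 0.314) and 0.07 with oleate (adjusted p = 0.463). The antisense gene PDK4-AS1 overlaps it with a mean of 0.228 TPM.

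CAY10566 gave no change that passed the test in any of the 9 genes over 9 against 9 samples with the fatty acid in the model (0.0% of all genes at the FDR by limma, with 748 of 13789 genes at an unadjusted p under 0.05). The largest member value was -0.11 for SLC25A20 (-0.24 to 0.03, adjusted p = 0.97). Within single fatty acid groups of 3 against 3 samples, 0 of the 9 passed with no fatty acid, with stearate or with oleate, where 0.0%, 0.0145% and 0.0% of all genes did. SLC25A20 without fatty acid had -0.23 (-0.46 to 0.01, adjusted p = 0.499), and ANGPTL4 without fatty acid had -0.26 (-0.53 to 0.02, adjusted p = 0.506). Over 9 against 9 samples, the intervals of CPT2 (-0.17 to -0.01, adjusted p = 0.894), ACADM (-0.06 to 0.10), HADHA (-0.10 to 0.00) and HADHB (-0.08 to 0.02), like that of SLC25A20, left out changes as large as those with stearate. The interval of ETFDH (-0.27 to 0.22) was wider.

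Within DMSO and within CAY10566, the same 5 genes rose with stearate in 3 against 3 samples: SLC25A20, CPT2, ACADM, HADHA and HADHB. Within DMSO their values were 0.40, 0.38, 0.24, 0.16 and 0.13 (limma, adjusted p = 0.0269, 0.00244, 0.0224, 0.0267 and 0.0381), beside 10.5% of all genes that rose. Within CAY10566 they were 0.53, 0.24, 0.33, 0.23 and 0.20 (adjusted p = 0.00966, 0.0493, 0.00631, 0.00623 and 0.00595), beside 2.18%. Rescaling by size factors left 1 of the 5 calls within DMSO, that of CPT2. Within DMSO the calls of SLC25A20, ACADM, HADHA and HADHB were lost in 3 to 5 of the 18 fits without a single sample (adjusted p up to 0.0813, 0.0853, 0.108 and 0.16), and within CAY10566 that of CPT2 was lost in 16 (up to 0.173, without CAY10566 replicate 2). Oleate gave 0 of 9 within DMSO (21.1% of all genes) and 0 of 9 within CAY10566 (0.058%), where CPT1A had 0.37 (0.06 to 0.67, adjusted p = 0.0773) and 0.36 (0.05 to 0.67, adjusted p = 0.325). Without CAY10566 replicate 3, CPT1A passed in both (0.37 and 0.53, adjusted p = 0.0326 and 0.0384).

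**Figure D3:**
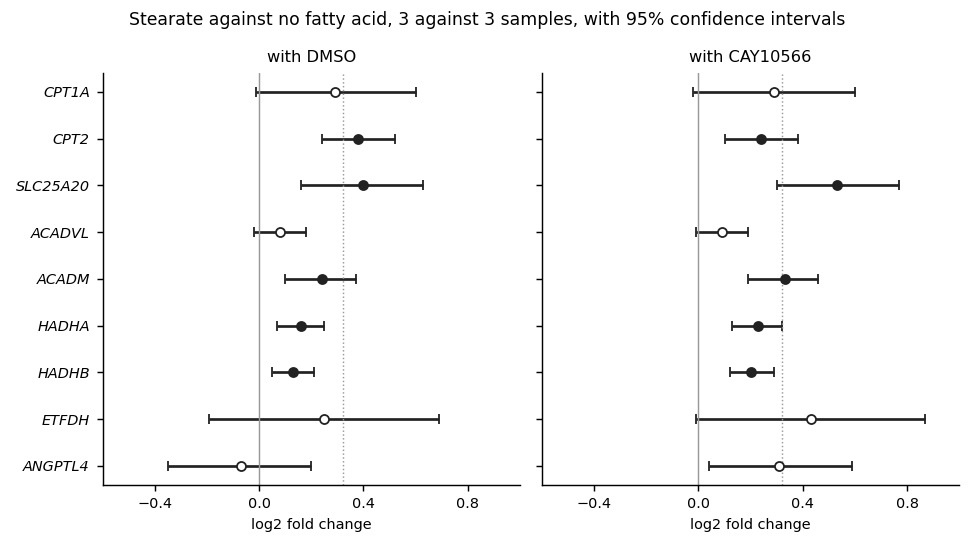
log2 fold changes of stearate against no fatty acid for the 9 tested genes with DMSO (left) and with CAY10566 (right), 3 against 3 samples, with 95% confidence intervals from limma. Filled points passed an FDR of 0.05. SLC25A20, CPT2, ACADM, HADHA and HADHB passed in both, and ANGPTL4 had -0.07 with DMSO and 0.31 with CAY10566.

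The interaction of stearate and CAY10566 passed the test for 0 of the 9 genes (0.00725% of all genes), and that of oleate for 0 of 9 (0.0%). The largest was that of ANGPTL4 with stearate, 0.39 (0.00 to 0.78, limma, adjusted p = 0.536), from -0.07 with DMSO to 0.31 with CAY10566. For SLC25A20 the stearate interaction was 0.14 (-0.19 to 0.47), so a moderate difference in the stearate effect between DMSO and CAY10566 was not resolved.

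The scale between samples matters for these small differences. TPM have a fixed total, and the median of all genes was 0.09 above control with oleate. Rescaling by median-of-ratios size factors brought it to -0.00096 and altered the share of all genes that rose and fell: with stearate from 13.5% and 5.97% to 7.92% and 10.2%, with oleate from 23.0% and 2.7% to 9.07% and 9.12%, and between the fatty acids from 6.85% and 14.3% to 10.4% and 11.5%. Under size factors 5 of the 9 genes rose with stearate, 1 (CPT1A, 0.27, limma, adjusted p = 0.0337) rose with oleate and 6 were higher with stearate than with oleate. SLC25A20, CPT2, ACADM, HADHA and HADHB kept their stearate calls against control in every alternative in which they were tested, with HADHB lowest at 0.09 with the length and GC trend removed (adjusted p = 0.0352) and 0.11 under size factors (adjusted p = 0.0404). With that trend removed, 6 of the 9 genes rose with stearate (7.69% of all genes), 0 with oleate (5.5%), and 6 were higher with stearate than with oleate (10.7%). The 6 that rose with stearate then held ACADVL (0.10, adjusted p = 0.0205) in place of CPT1A (0.22, adjusted p = 0.0554).

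Of 21 other genes of mitochondrial β-oxidation, 19 were tested, and 4 rose with stearate (13.5% of all genes, and 7.92% under size factors): ACADSB (0.38, limma, adjusted p = 0.0208), a branched-chain dehydrogenase, DECR1 (0.28, adjusted p = 0.0169), the dienoyl-CoA reductase needed for unsaturated chains, the thiolase ACAA2 (0.19, adjusted p = 0.0145) and the isomerase ECI1 (0.09, adjusted p = 0.0271). The median of the 19 was 0.09. Each scaling left 1 of these 4 calls: size factors ACADSB (0.33, adjusted p = 0.0345) and removal of the length and GC trend ECI1 (0.15, adjusted p = 0.000145), where ACADSB had 0.25 (adjusted p = 0.0868). With oleate 0 of 19 passed in either direction (23.0% of all genes rose and 2.7% fell, median 0.01), and 4 fell under size factors (9.12% of all genes) and 2 with the trend removed (6.31%). Without CAY10566 replicate 3, 1 of the 19 rose with oleate and 1 fell. Stearate exceeded oleate for 6 of 19 (6.85% of all genes, median 0.11), the largest being DECR1 (0.34, adjusted p = 0.00496), for 6 under size factors (10.4%) and for 7 with the trend removed (10.7%). ETFA and ETFB, the subunits of the flavoprotein upstream of ETFDH, had -0.01 and -0.02 with stearate (adjusted p = 0.836 and 0.806).

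In the peroxisome, which shortens very long and branched chains, 13 of 14 listed genes were tested. All 13 had a positive value with stearate (median 0.18, and 0.06 for all genes). The median was 0.12 under size factors (0.01 for all genes), with 13 positive. With the length and GC trend removed it was 0.09 (0.0027 for all genes), with 12 positive. The share of all genes with a positive value is not reported here. CROT, a carnitine octanoyltransferase (0.39, limma, adjusted p = 0.0059), ABCD3, a transporter of the peroxisomal membrane (0.26, adjusted p = 0.01), and PECR, a reductase (0.32, adjusted p = 0.0319), passed the test, 3 of 13 beside 13.5% of all genes. Under size factors 2 passed (7.92% of all genes), and with the length and GC trend removed 1, CROT (7.69%). With oleate 0 of 13 passed (23.0% of all genes rose and 2.7% fell, median 0.10), and 1 fell under each scaling, ACAA1 (9.12% and 6.31% of all genes). Without CAY10566 replicate 3, 1 of the 13 rose with oleate. Stearate exceeded oleate for 2 of 13 (6.85% of all genes), PECR and ACAA1, and for 3 under each scaling (10.4% and 10.7%), where PECR missed the threshold with the trend removed (0.28, adjusted p = 0.0537).

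Of 30 other PPAR target genes, 15 were below a mean of 1 TPM. They include PLIN2 (mean 0.284 TPM), which coats lipid droplets, and FABP1, listed at 0 in every sample. Among the 15 tested, 1 rose and 2 fell with stearate (13.5% and 5.97% of all genes), and 2 rose and 2 fell with oleate (23.0% and 2.7%). Under size factors 0 rose and 3 fell with stearate (7.92% and 10.2% of all genes), and 0 rose and 5 fell with oleate (9.07% and 9.12%). With the length and GC trend removed 0 rose with either (7.69% and 5.5%), while 3 and 2 fell (10.3% and 6.31%). ACSL3, an acyl-CoA synthetase, rose with stearate (0.18, limma, adjusted p = 0.0317) and fell with oleate (-0.19, adjusted p = 0.0204), and the fatty acids differed by 0.37 (adjusted p = 0.000117). Under size factors the stearate call of ACSL3 was lost (0.12, adjusted p = 0.17) and the oleate value was -0.29 (adjusted p = 0.00484). The median of the 15 was -0.02 with stearate and -0.06 with oleate, against 0.28 and 0.08 for the 9 members.

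Of the receptors and their partners, 13 of 15 were tested. PPARD (mean 22.7 TPM) and PPARG (13.4) were more abundant than PPARA (4.51), and PPARGC1A, a coactivator of oxidative genes, had a mean of 0.0489 TPM. With stearate 2 of the 13 rose (13.5% of all genes) and 2 fell (5.97%): NCOA1 (0.48, limma, adjusted p = 0.000465) and MED1 (0.28, adjusted p = 0.0295), which are coactivators, rose, and PPARD (-0.14, adjusted p = 0.0467) and PPARG (-0.18, adjusted p = 0.0403) fell. Both scalings kept these 4 calls. PPARD rose with oleate (0.16, adjusted p = 0.0226), a call lost under both scalings (0.07 in each, adjusted p = 0.307 and 0.255), and was lower with stearate than with oleate (-0.31, adjusted p = 0.000202). With oleate 7 of the 13 rose (23.0% of all genes) and 0 fell, among them MED1 (0.35) and NCOA2 (0.40), a coactivator, and the corepressor NCOR1 (0.41). Under size factors the 7 became 2, MED1 and NCOR1 (9.07% of all genes), and with the length and GC trend removed 0 rose and 1 fell (5.5% and 6.31%). RXRA, the dimer partner, was lower with stearate than with oleate (-0.35, adjusted p = 0.00386).

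PDK4 acts on pyruvate dehydrogenase beside other kinases (PDK1, PDK2 and PDK3) and the phosphatases PDP1 and PDP2, and these were tested together with the enzyme subunits PDHA1 and PDHB, 7 genes in all. PDP1, a phosphatase that reactivates the enzyme, fell with stearate (-0.23, limma, adjusted p = 0.0274), rose with oleate (0.30, adjusted p = 0.00664) and differed between them by -0.53 (adjusted p = 2.8e-05), directions that both scalings kept, although the oleate call was lost with the length and GC trend removed (0.16, adjusted p = 0.0538). PDP1 was the only call of the 7 genes with stearate (13.5% of all genes rose and 5.97% fell), also under size factors (7.92% and 10.2%). With the trend removed PDHA1 fell too (-0.10, adjusted p = 0.0427), beside 10.3% of all genes that fell. With oleate PDP1, PDK1 and PDHA1 rose, 3 of the 7 beside 23.0% of all genes. Under size factors 1 gene rose and 1 fell (9.07% and 9.12% of all genes). With the trend removed 0 rose and 2 fell (5.5% and 6.31%). PDK1, PDK2 and PDK3 had means of 16.8, 14.5 and 6.4 TPM, all above PDK4.

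CPT1A is restrained by malonyl-CoA, which acetyl-CoA carboxylase makes and AMP-activated kinase limits. Of 7 genes in that list 5 were tested, and 2 rose with stearate (13.5% of all genes), or 1 under size factors (7.92%): the kinase subunits PRKAA1 (0.32, limma, adjusted p = 0.00119) and PRKAG1 (0.18, adjusted p = 0.00112). PRKAG1 missed the threshold under size factors (0.12, adjusted p = 0.0539). PRKAA1 rose with oleate as well (0.18, adjusted p = 0.034), but not under size factors (0.08, adjusted p = 0.323). ACACA had -0.16 with stearate (adjusted p = 0.32), and ACACB and MLYCD had means of 0.46 and 0.733 TPM.

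ANGPTL4 also responds to low oxygen, and 9 of 10 listed hypoxia genes were tested. With stearate 0 rose and 1 fell (13.5% and 5.97% of all genes), the glucose transporter SLC2A1 (-0.31, limma, adjusted p = 0.000605). Under each scaling 3 fell, SLC2A1, NDRG1 and VEGFA, beside 10.2% of all genes under size factors and 10.3% with the trend removed. With oleate 0 passed in either direction (23.0% of all genes rose and 2.7% fell). In that comparison 1 fell under size factors (9.12%) and 2 with the length and GC trend removed (6.31%), SLC2A1 in both. ANKRD37 was higher with stearate than with oleate (0.34, adjusted p = 0.0298), by over 25%, a call lost with the trend removed (0.30, adjusted p = 0.0505), whereas VEGFA was lower (-0.27, adjusted p = 0.00109).

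Without CAY10566 replicate 3, more genes passed against control: 20.3% of all genes rose and 6.53% fell with stearate, and 30.1% rose and 4.11% fell with oleate (limma). With stearate, 7 of the 9 members rose, 4 of the 19 other mitochondrial genes, 6 of the 13 peroxisomal genes and 3 of the 13 receptors and coregulators. PPARD with stearate (-0.10, adjusted p = 0.0723) and KRT19 with oleate (-0.10, adjusted p = 0.0635) then missed the threshold. With oleate, 2 of the 9 members rose (CPT1A and ACADVL), and 10 of the 13 receptors and coregulators. Of the 19 other mitochondrial genes 1 rose and 1 fell, and 1 of the 13 peroxisomal and 2 of the 5 malonyl-CoA genes rose. Among the hypoxia genes, LDHA (0.08, adjusted p = 0.0313) and VEGFA (0.16, adjusted p = 0.00798) rose. Between the fatty acids, 7.85% of all genes were higher and 17.2% lower with stearate. Of the receptors and coregulators 1 was higher and 6 lower, and of the hypoxia genes 1 and 3. Counts of the other PPAR targets and of the pyruvate dehydrogenase genes were as with all samples.

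**Figure D4:**
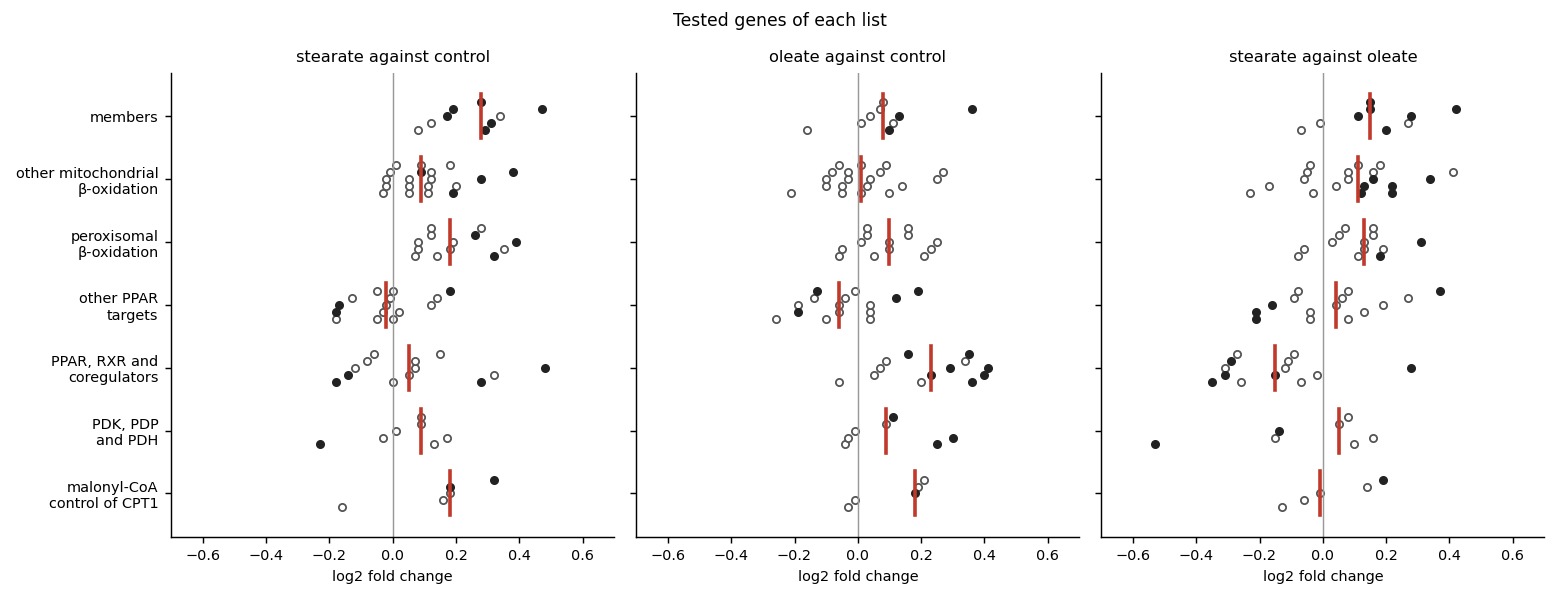
log2 fold changes on the log2(TPM + 1) scale of the tested genes of each list, for stearate against control, oleate against control and stearate against oleate, 6 against 6 samples. Each point is a gene, filled where it passed an FDR of 0.05, and the red bar is the median of the list. The members had a median of 0.28 with stearate, other mitochondrial β-oxidation genes 0.09, peroxisomal genes 0.18 and other PPAR targets -0.02.

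Over the 18 samples, the tested genes whose log2 values followed ANGPTL4 most closely were H2AC6, BCL6, PRSS22, NOL3 and S100A9, with Pearson correlations of 0.82, 0.78, 0.77, 0.76 and 0.76. For CPT1A they were KCTD12, SRSF11, TRPM4, SS18 and ACAP2, at 0.92, 0.92, 0.91, 0.90 and 0.90. For PDK4, at its low level, they were FAM3C, PNRC2, SMARCA5, ZNF731P and MYO9B, at 0.78, 0.77, 0.77, 0.75 and 0.75. None of the other 9 members was among these genes. Without CAY10566 replicate 3 the gene that followed ANGPTL4 most closely was S100A9, at 0.86, and for PDK4 it was SMARCA5, at 0.78. These values describe 18 samples that share 6 conditions and their scaling, and the genes were picked as the highest of all tested.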

How the data were processed

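RNA of OVCAR5 cells was sequenced as stranded poly(A) libraries from 18 samples, grouped by the sample labels. The authors trimmed reads with Trim Galore, aligned them to GRCh38 with STAR 2.7.1a and quantified them with RSEM. The table that the authors deposited holds TPM per gene, summing to between 999999.1 and 1000000.5 per sample, so depth is unknown and precision comes only from the spread between replicates. Of 60484 lines, 1 that named no gene was left out, and 56321 identifiers (93.1%) had a symbol.

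limma 3.58.1 in R 4.3.3 (lmFit, then eBayes with a trend) was fitted to log2(TPM + 1) for the 13789 genes whose mean TPM reached 1, with p-values adjusted over all of them (Benjamini-Hochberg, FDR under 0.05). Genes past the FDR were also checked for a fold change over 1.25 in either direction (for higher genes, a rise of over 25%). Models held 3 fatty acid groups, CAY10566 with fatty acid as covariate, or 6 conditions. Exact permutation tests (scipy 1.17.1, two-sided) compared 6 with 6 samples, and figures used matplotlib 3.10.9. The fits were tested on simulated data. Alternatives were no filter, a minimum mean TPM of 5, a pseudocount of 0.1, no trend in eBayes, rescaling by size factors, a replicate block, a CAY10566 covariate and leaving out each sample. A fit that first removed, per sample, any dependence on the length and GC of the longest transcript (natural splines, 3 degrees of freedom, 13627 genes) was added after the data were seen.

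The members and lists were chosen with earlier results of these data known. All 10 members are named. From the lists, genes that passed both in any fatty acid comparison are named, and for ANGPTL4, PDK4 and CPT1A the 5 most correlated genes. Other list genes were chosen after their values were seen, and some list genes are not reported here. Promoter windows come from RefSeq, and those of ETFDH were not used here.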

Additional observations from a re-analysis of the deposited data

Results flagged for a closer look

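HADHB in oleate+CAY10566 replicate 1, at 78.72 TPM, lay farther below the other 5 oleate samples than 95% of groups of that size would show by Dixon's criterion (gap over range 0.641, critical value 0.625). It was the only such value in 30 groups of 6 samples examined, and chance flags about 1 in 20 groups. Without that sample the HADHB difference between stearate and oleate kept its call, whereas that of HADHA did not (adjusted p = 0.0537 by limma).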

How the results depend on the processing

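Of 1227 values of single genes under the alternatives, 1090 kept their direction and their side of the threshold, 102 lost a call, 9 gained one and 26 changed sign, of which 3 had been past the threshold. The cause was not tested. Against control with stearate, the count of genes that rose by over 25% went from 1 to 2 with a pseudocount of 0.1 and to 0 at a mean TPM of at least 5, where SLC25A20 was not tested. With oleate, the count at the FDR went from 3 to 1 with no filter, 1 under size factors and 0 with the length and GC trend removed, and that over 25% from 1 to 0 under both scalings. Stearate over oleate by over 25% gave 0 at a mean TPM of at least 5 and 2 with the trend removed. Stearate within DMSO gave 1 of 5 calls under size factors and 2 with the trend removed, and over 25% 1, 1, 0 and 1 of 2 with no filter, at a mean TPM of at least 5, under size factors and with the trend removed. Stearate within CAY10566 gave 1 of 2 over 25% under the last 3 of these. Oleate within DMSO gave 2 lower genes under size factors, against 0.

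Leaving out each sample in turn gave 5 to 7 genes at the FDR with stearate and 1 to 3 over 25% (3 without CAY10566 replicate 3), 1 to 3 and 0 to 1 with oleate, and 4 to 6 and 1 to 2 between the fatty acids. It gave 1 to 5 and 1 to 2 with stearate within DMSO, 4 to 5 and 1 to 2 within CAY10566, and 0 to 1 for both oleate counts within DMSO and within CAY10566. Where it left 2 samples in a condition, the spread was shared with the other conditions.

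Signs changed mostly in small oleate values against control. Size factors gave -0.04 for SLC25A20 (-0.03 in the permutation test), -0.0033 for ACADVL, -0.02 for HADHA, -0.09 for HADHB (exact permutation p = 0.0368) and -0.01 for ETFDH. The length and GC trend removed gave -0.03 for CPT2, -0.04 for ACADM, -0.06 for HADHB and -0.12 for ETFDH. Leaving out single samples, SLC25A20 ranged from -0.01 to 0.08 (below 0 without CAY10566 replicate 1 or 2) and ETFDH from -0.04 to 0.15 (below 0 without replicate 2 of DMSO or oleate+DMSO). Between the fatty acids, CPT1A became 0.002 with the trend removed, and ACADVL 0.03 under each scaling, 0.00047 without stearate+DMSO replicate 1 and 0.0036 without stearate+CAY10566 replicate 1. With stearate within DMSO, ACADVL became -0.01 under size factors, and ANGPTL4 ranged from -0.16 to 0.03 when single samples were left out (above 0 without DMSO replicate 2 or stearate+DMSO replicate 3).

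The replicate numbers did not pair the samples: deviations from the condition means correlated between same-numbered samples at -0.18 to 0.103 (median 0.012, 2 of 45 pairs over 0.1), and 9 of 18 samples correlated best with their own number. With the replicate block, 5 of the 9 genes rose with stearate (12.4% of all genes), 3 with oleate (21.6%) and 5 were higher with stearate than with oleate (6.44%). The block moved CPT1A with stearate to an adjusted p of 0.0508 and ANGPTL4 between the fatty acids to 0.0613, and within media HADHB with DMSO to 0.0566 and CPT2 with CAY10566 to 0.0765. Depth is unknown, so low genes such as PDK4 have no counting interval.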

Other observations

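Genes of the lists that the text above does not describe were seen to move as follows. G0S2, an inhibitor of lipolysis (mean 237.0 TPM), fell with stearate by 0.17 on the log2 scale (limma, adjusted p = 0.0041), and PNPLA2, the lipase that it inhibits (83.7 TPM), fell by 0.18 (adjusted p = 0.0142). Both fell under size factors as well (-0.23 and -0.23). ACSL5 (55.6 TPM) and TXNIP (416.0 TPM) rose with oleate by 0.19 and 0.12 (adjusted p = 0.00419 and 0.00527), calls that were lost under size factors (0.09 and 0.02).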
